A study of Mus musculus with 2 samples.

Results

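The genes described here belong to the vasoactive signalling of the vessel wall: endothelin 1 (Edn1) and its type A receptor (Ednra), endothelial nitric oxide synthase (Nos3), the subunits of soluble guanylate cyclase (Gucy1a1, Gucy1b1), the cGMP-dependent kinase Prkg1, the cGMP phosphodiesterase Pde5a, the PACAP receptor Adcyap1r1, the angiotensin II receptor Agtr1a and the receptor partner Ramp2. They were taken as a named list of 10 genes, and all 10 were among the 27040 Ensembl gene identifiers present in both count tables. Cells came from the stria vascularis (SV), the vascularised epithelium of the cochlear lateral wall, of mice aged 1 to 3 months. Tie2-GFP mice carry GFP under the promoter of Tek, which encodes the endothelial receptor Tie2, and in NG2-DsRed mice the promoter of Cspg4, the gene of the pericyte surface protein NG2, drives DsRed. For each line 20 cochleae of 10 mice were pooled, sorted for fluorescence where needed and made into 1 library on the 10x Chromium 3′ platform. No injury or drug was applied in either line, so the comparisons possible are those between cell classes and between the 2 reporter lines. With 1 library per line there is no replicate, and no test or p-value was computed. Every interval is a 95% interval that covers counting error only.

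The vessel wall adjusts its calibre by signals that pass between its layers. Endothelial cells (ECs) release endothelin 1, which acts through Ednra on the surrounding mural cells, the pericytes (PCs) and smooth muscle cells, and makes them contract. They also make nitric oxide, which activates the Gucy1a1-Gucy1b1 cyclase in mural cells. The cGMP formed there activates Prkg1, which relaxes the cell, until Pde5a degrades the cGMP. PACAP acts on Adcyap1r1, angiotensin II on Agtr1a, and adrenomedullin on the complex of Ramp2 with Calcrl. Capillary flow in the stria is needed for the ion transport that drives hearing.

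To show where the genes of the ligand, its receptor and the cyclase begin, the RefSeq sequence just upstream of the annotated start of each is given (build GRCm38.p6), 5′ to 3′ on the strand of the gene. The windows lie at chr13:42301226-42301475 (+) for Edn1, chr8:77724465-77724702 (−) for Ednra, chr3:82145790-82145900 (−) for Gucy1a1 and chr3:82074712-82074961 (−) for Gucy1b1. Capitals mark a match to the GC box GGGCGG.
Edn1: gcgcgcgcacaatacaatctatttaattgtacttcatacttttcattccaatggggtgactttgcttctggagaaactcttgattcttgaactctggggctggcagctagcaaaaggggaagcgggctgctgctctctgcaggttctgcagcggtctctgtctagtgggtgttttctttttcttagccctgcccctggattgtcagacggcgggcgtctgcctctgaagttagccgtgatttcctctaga
Ednra: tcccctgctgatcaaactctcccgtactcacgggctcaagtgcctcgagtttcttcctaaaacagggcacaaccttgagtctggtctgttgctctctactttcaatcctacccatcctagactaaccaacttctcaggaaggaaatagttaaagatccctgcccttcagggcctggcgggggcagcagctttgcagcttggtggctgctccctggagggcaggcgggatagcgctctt
Gucy1a1: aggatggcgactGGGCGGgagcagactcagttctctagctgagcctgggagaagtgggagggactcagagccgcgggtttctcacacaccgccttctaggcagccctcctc
Gucy1b1: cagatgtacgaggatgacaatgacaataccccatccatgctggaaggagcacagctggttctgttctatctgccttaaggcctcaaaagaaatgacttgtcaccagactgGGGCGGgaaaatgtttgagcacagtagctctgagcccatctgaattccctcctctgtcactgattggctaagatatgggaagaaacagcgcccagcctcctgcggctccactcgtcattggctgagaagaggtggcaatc
A GC box was found 1 time in the Gucy1a1 window of 111 bp. It was found in 11.7% of all windows cut to their first 111 bp, the part farthest from the RefSeq start. The Gucy1b1 window held a GC box 1 time, as did 32.7% of all windows of 250 bp. The other 6 motifs searched on both strands were the motif of GATA factors (AGATAA), of AP-1 (TGACTCA), of ETS factors (GGAAGT), the box TATAAA, the hypoxia response element (ACGTG) and the CArG box, and their letters are not in the 4 windows. GC content was 50.4% for Edn1, 54.6% for Ednra, 63.1% for Gucy1a1 and 51.2% for Gucy1b1. The median was 52.4% over 32851 windows of 250 bp, while the windows of Ednra and Gucy1a1 had 238 and 111 bp. Gucy1a1 and Gucy1b1 lie next to each other on the same strand of chromosome 3, 17737 bp apart with 0 annotated genes between them. A window was found for 7 of the 10 genes, and there was none for Nos3, Agtr1a and Ramp2.

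The Tie2-GFP library held 633 barcodes and 5432289 UMIs (unique molecular identifiers, the counted molecules), with a median of 6956 UMIs per barcode, and the NG2-DsRed library 201 barcodes and 1232599 UMIs, with a median of 4322. The libraries shared 0 barcodes. Barcodes were named EC-like when at least 4 of Pecam1, Cdh5, Cldn5, Flt1, Egfl7 and Ramp2 had a UMI, mural-like when at least 3 of Pdgfrb, Rgs5, Vtn and Notch3 had a UMI with at most 1 of those endothelial genes, and intermediate-like when Dct, Tyr and Kcnj10, genes of the melanocyte-derived cells of the stria, all had a UMI. This gave 379 EC-like, 4 mural-like and 87 intermediate-like barcodes in the Tie2-GFP library, and 58, 97 and 23 in the NG2-DsRed library. Markers outside the rules were then checked. All 7 endothelial markers were found in the EC-like barcodes of both libraries, with 78.1% and 74.1% of barcodes holding a Tek UMI. In those of the Tie2-GFP library, 4 erythroid markers, each in a minority of barcodes, summed to 9254 UMIs, against 13533 of the endothelial markers. Of these erythroid UMIs, 9250 lay in barcodes with at most 1 of the mural genes. The EC-like barcodes of the NG2-DsRed library held 13 erythroid UMIs. All 6 mural markers were found in the mural-like barcodes of the NG2-DsRed library, 80.4% of which held a Cspg4 UMI, with Tek and Kdr at 0 although Esam was found in 73.2% and Emcn in 34.0%. In intermediate-like barcodes Mlana and Mitf were found in over 90% but Tyrp1 was at 0 and Pmel in 1 barcode of each library, while marginal cell Slc12a2 was also widespread and Cspg4 was found in 37.9% and 78.3%, so the name rests on its rule. Their median mitochondrial share was 9.31% and 5.55%.

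Markers of mural cells were also present in part of the EC-like barcodes. At least 3 of the 4 mural genes of the rule had a UMI in 26 of the 379 EC-like barcodes of the Tie2-GFP library and in 32 of the 58 of the NG2-DsRed library. The median depth of these barcodes was 17782.5 and 10985.5 UMIs, against 7233 and 6202.5 in the 347 and 16 EC-like barcodes with at most 1 mural gene. The 6 mural markers outside the rule summed to 1278 and 1453 CPM (UMIs of a gene per 1000000 UMIs of the class) in them, against 8.65 and 131 CPM with at most 1 mural gene, where Cspg4 was at 0 in both libraries, and 4375 CPM in mural-like barcodes. For the main genes the values of EC-like barcodes with at most 1 mural gene are therefore given beside those of all EC-like barcodes, while the partners and the wider list are given for all EC-like barcodes unless stated.

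**Figure D1:**
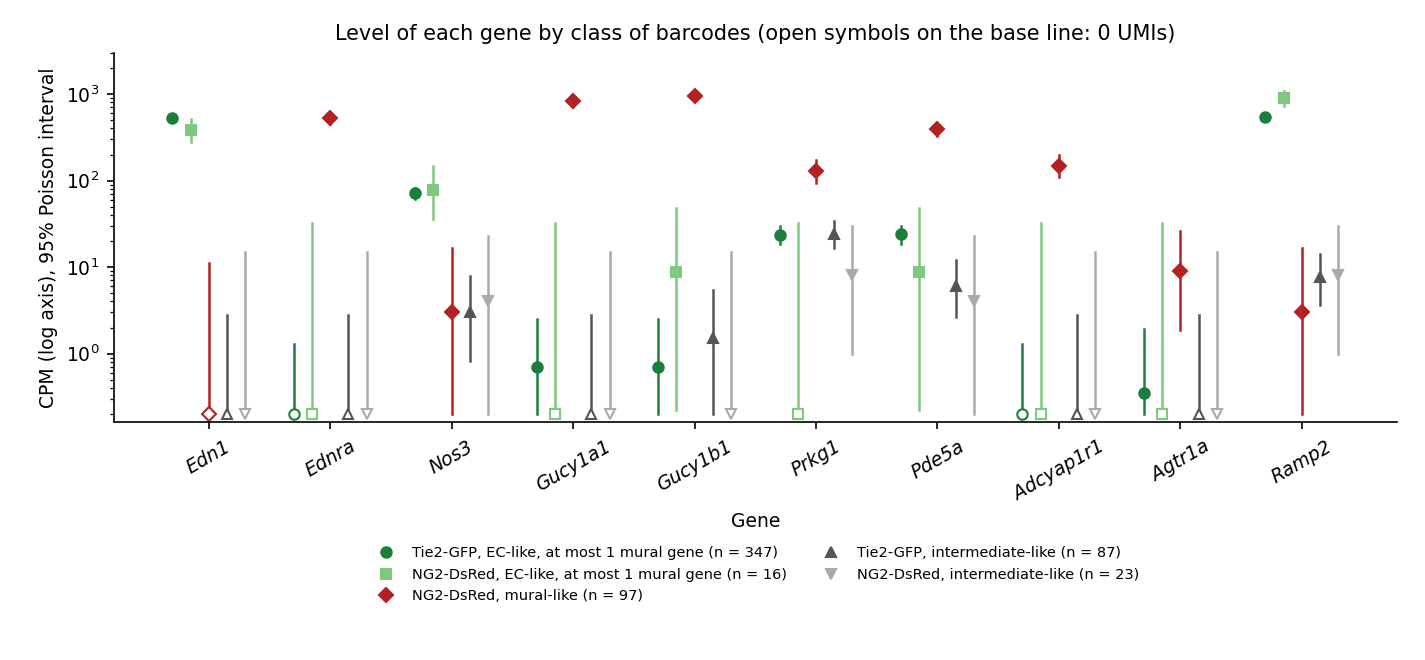
Level of the 10 genes in CPM (log axis) in 5 classes of barcodes, with exact Poisson 95% intervals over the summed UMIs of the class. Circles and squares are EC-like barcodes with at most 1 mural gene, diamonds mural-like barcodes and triangles intermediate-like barcodes, and open symbols on the base line stand for 0 UMIs. Edn1 and Nos3 were high in the EC-like classes, and Ednra, Gucy1a1, Gucy1b1, Pde5a, Prkg1 and Adcyap1r1 in the mural-like class.

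The ligand was found in the EC-like barcodes and in none of the mural-like ones. The mural-like rule lets in at most 1 endothelial gene, so the 0 in that class is not independent of the rule. Barcodes rich in both sets of genes were counted as EC-like. In the NG2-DsRed library, 21 of the 32 EC-like barcodes with at least 3 mural genes held an Edn1 UMI (65.6%). Edn1 (ENSMUSG00000021367, chr13:42301476-42307990, protein coding) had 1648 UMIs in the 379 EC-like barcodes of the Tie2-GFP library, or 480 CPM (457 to 504), and 155 UMIs in the 58 of the NG2-DsRed library, or 272 CPM (230 to 318). With at most 1 mural gene the levels were 528 CPM (502 to 555) and 384 CPM (279 to 515). The level in the NG2-DsRed library was thus lower by 0.46 on the log2 scale (0.03 to 0.93), a difference of 2 libraries and not of conditions. Edn1 had 0 UMIs in 97 mural-like barcodes of the NG2-DsRed library, which at 3 counts allows a share of barcodes with a UMI of up to 3.09% and sets no limit on cells that express the gene, and 0 in the 4 of the Tie2-GFP library. It also had 0 UMIs in 87 intermediate-like barcodes, which allows a share with a UMI of up to 3.45%, although these were deeper (median 15955 UMIs) than the EC-like ones (7431).

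Edn1 was uneven among ECs. Of the 347 EC-like barcodes of the Tie2-GFP library with at most 1 mural gene, 155 (44.7%) held a UMI. At an equal depth of 2527 UMIs, 32.4% of the 323 that were deep enough would hold one. The counts ran from 42 barcodes with 1 UMI to 49 with at least 10, with a highest count of 64. The 35 barcodes with the most Edn1 held 69.3% of its UMIs. Nos3 had fewer UMIs in the same barcodes, 206 against 1526 of Edn1. It had a UMI in 131 barcodes, 91 of them with just 1, and 15.8% of the 323 would hold one at equal depth. The highest count was 8, and the top 35 barcodes held 51.0% of its UMIs. Because the 2 genes differ in level, these values do not tell which was more even.

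**Figure D2:**
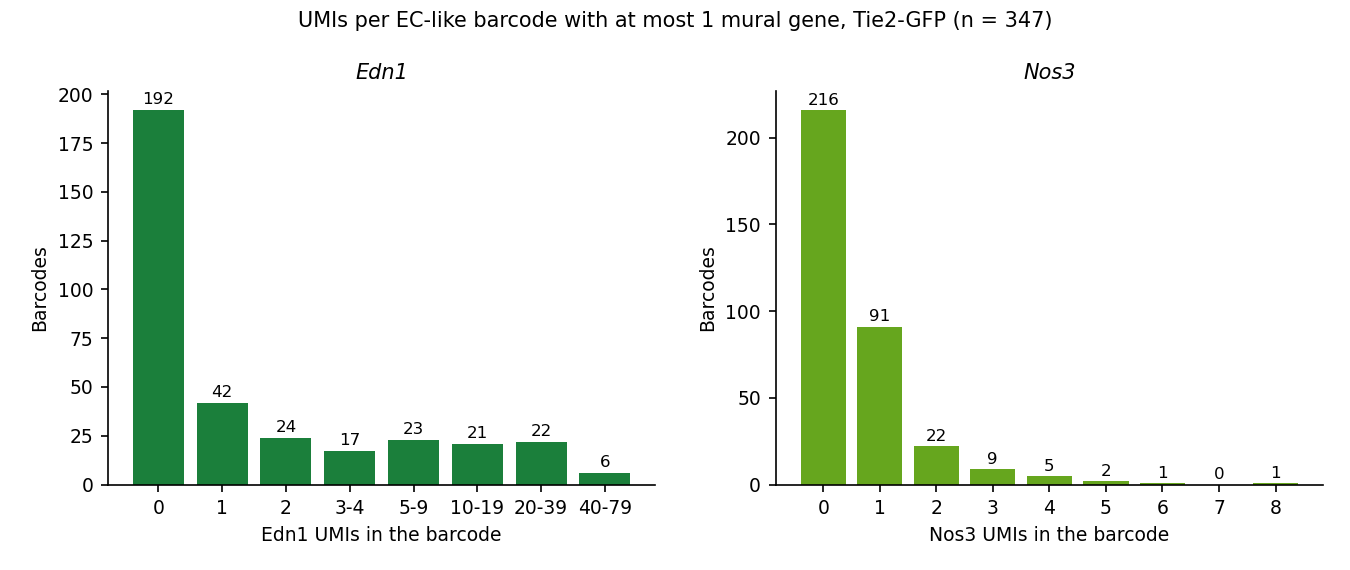
Number of EC-like barcodes of the Tie2-GFP library with at most 1 mural gene (vertical axis, 347 in all) by the UMIs of Edn1 (left) or Nos3 (right) that each holds, with the count above each bar. Edn1 reached 64 UMIs in a barcode and Nos3 reached 8.

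The receptor showed the opposite distribution. Ednra (ENSMUSG00000031616, chr8:77663031-77724464) had 175 UMIs in the mural-like barcodes of the NG2-DsRed library, or 527 CPM (451 to 611), and 69 of the 97 (71.1%) held a UMI, with a median of 2 among them and a highest count of 9. The 4 mural-like barcodes of the Tie2-GFP library held 6 UMIs. In intermediate-like barcodes Ednra had 0 UMIs in both libraries, although those of the NG2-DsRed library were deeper (median 10383 UMIs) than the mural-like ones (3027). EC-like barcodes with at most 1 mural gene also had 0 UMIs, in 347 barcodes (a share with a UMI of up to 0.865%) and in 16. All 27 Ednra UMIs of the EC-like class in the Tie2-GFP library lay in the 26 barcodes with at least 3 mural genes, of which 53.8% held a UMI. In the NG2-DsRed library 40 of 45 lay in the 32 such barcodes (56.2%) and 5 in the 10 barcodes with 2 mural genes.

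The partners of endothelin were spread over more classes. Ednrb, the type B receptor, was highest in intermediate-like barcodes, at 250 CPM in the Tie2-GFP library and 392 CPM in the NG2-DsRed library, where 23 of 23 barcodes held a UMI. It was found at 126 CPM in mural-like barcodes (15.5% of barcodes) and at 38.0 CPM in EC-like barcodes of the Tie2-GFP library with at most 1 mural gene (19.6%), and at 0 UMIs in the 16 of the NG2-DsRed library. Ece1, which cleaves the endothelin precursor to its active form, was at 370 CPM in EC-like barcodes of the Tie2-GFP library, at 265 CPM in those of the NG2-DsRed library, at 156 CPM in mural-like barcodes and at 5.33 CPM in intermediate-like barcodes of the Tie2-GFP library. Edn3, another endothelin, had 1 UMI in EC-like barcodes of the Tie2-GFP library and 0 in the other classes.

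Nitric oxide synthase marked the same class as Edn1. Nos3 (ENSMUSG00000028978, chr5:24364810-24384474, overlapped on the other strand by Gm15587 and Atg9b) had 234 UMIs in the EC-like barcodes of the Tie2-GFP library, or 68.1 CPM (59.7 to 77.5), and 33 in those of the NG2-DsRed library, or 57.8 CPM (39.8 to 81.2). With at most 1 mural gene the levels were 71.3 CPM (61.9 to 81.7) and 78.5 CPM (35.9 to 149), a log2 difference of 0.14 (−1.01 to 1.09) between the libraries. Mural-like barcodes of the NG2-DsRed library held 1 UMI and intermediate-like barcodes 4 in the Tie2-GFP library and 1 in the NG2-DsRed library. The share of barcodes with a UMI was 39.8% in EC-like and 4.60% in intermediate-like barcodes of the Tie2-GFP library, although the latter were deeper. Of the genes that serve the enzyme, Gch1, which acts in the synthesis of its cofactor tetrahydrobiopterin, and Nostrin, which governs its traffic, were over 4-fold higher in EC-like than in mural-like barcodes of the NG2-DsRed library, with Gch1 at 0 UMIs in the latter. Nosip (log2 ratio, mural-like to EC-like, 0.28), Cav1 (0.71), Ddah2 (−0.05) and Spr (−0.93), named after their values were seen, stayed under 4-fold.

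Both subunits of the cyclase were found in most mural-like barcodes. Gucy1a1 (ENSMUSG00000033910, chr3:82092427-82145789) had 275 UMIs there in the NG2-DsRed library, or 827 CPM (733 to 931), with a UMI in 74.2% of the 97 barcodes and a highest count of 18. Gucy1b1 (ENSMUSG00000028005, chr3:82032006-82074689) had 317 UMIs, or 954 CPM (852 to 1065), with a UMI in 88.7% and a highest count of 12. The NG2-DsRed table lists them under the older symbols Gucy1a3 and Gucy1b3. In EC-like barcodes with at most 1 mural gene the Tie2-GFP library held 2 UMIs of each in 347 barcodes (0.692 CPM), and the NG2-DsRed library 0 of Gucy1a1 and 1 of Gucy1b1 in 16. In all EC-like barcodes the levels were 33.2 and 34.1 CPM in the Tie2-GFP library and 147 and 201 CPM in the NG2-DsRed library. Those UMIs were mostly in the barcodes with at least 3 mural genes, which held 108 of 114 Gucy1a1 and 112 of 117 Gucy1b1 UMIs of the EC-like class of the Tie2-GFP library. Intermediate-like barcodes held 0 Gucy1a1 UMIs in both libraries, and 2 and 0 of Gucy1b1. Gucy1a2, the other alpha subunit, had 23 UMIs in mural-like barcodes (69.2 CPM) and 11 in EC-like barcodes of the NG2-DsRed library (19.3 CPM).

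Downstream of cGMP, Pde5a and Prkg1 were both highest in mural-like barcodes and were found at lower levels in EC-like barcodes of the Tie2-GFP library. Pde5a (ENSMUSG00000053965, chr3:122728947-122859374) was at 394 CPM (330 to 468) in mural-like barcodes, 61.9% of which held a UMI, and at 46.6 and 126 CPM in all EC-like barcodes of the Tie2-GFP and NG2-DsRed libraries. In EC-like barcodes with at most 1 mural gene it was at 23.9 CPM (18.6 to 30.2) in the Tie2-GFP library, with a UMI in 17.0%, and at 1 UMI in the NG2-DsRed library, and in intermediate-like barcodes of the Tie2-GFP library at 6.09 CPM (2.63 to 12), with a UMI in 6.90%. A low level of Pde5a in ECs thus exceeded that in intermediate-like barcodes by 1.97 on the log2 scale (0.91 to 3.24). Prkg1 (ENSMUSG00000052920, chr19:30564489-31765033) was at 129 CPM (93.6 to 174) in mural-like barcodes and at 31.7 and 22.8 CPM in all EC-like barcodes of the 2 libraries. With at most 1 mural gene it was at 23.5 CPM (18.3 to 29.8) in the Tie2-GFP library and at 0 UMIs in the 16 barcodes of the NG2-DsRed library. Intermediate-like barcodes of the Tie2-GFP library held 24.4 CPM (16.7 to 34.4), a log2 difference of −0.05 with an interval of −0.68 to 0.60. The level of Prkg1 in ECs therefore could not be told apart from that in a non-vascular class of the same library. Intermediate-like barcodes of the NG2-DsRed library held 2 Prkg1 UMIs, or 8.16 CPM (0.99 to 29.5). Whether intronic reads were counted is not stated for either library, their software versions differ, and Prkg1 spans 1200545 bp. The part of this in the levels of Prkg1 was not tested. Prkg2, the other cGMP kinase, had 0 UMIs in the EC-like, mural-like and intermediate-like classes, and Irag1, the Prkg1 substrate listed as Mrvi1 and named after its values were seen, was at 208 CPM in mural-like and 70.1 CPM in EC-like barcodes of the NG2-DsRed library.

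Among the other receptors, Adcyap1r1 was found in mural-like barcodes and Agtr1a hardly at all. Adcyap1r1 (ENSMUSG00000029778, chr6:55451978-55501451) had 49 UMIs in mural-like barcodes, or 147 CPM (109 to 195), with a UMI in 26.8% and a highest count of 5. EC-like barcodes with at most 1 mural gene held 0 UMIs in both libraries, and the 3 and 10 UMIs of the EC-like classes were all in barcodes with at least 3 mural genes. Intermediate-like barcodes held 0. Its ligand gene Adcyap1 had 0 UMIs in these classes. Agtr1a (ENSMUSG00000049115, chr13:30336441-30382867) had 3 UMIs in mural-like barcodes, or 9.03 CPM (1.86 to 26.4). It had 3 and 2 in the EC-like classes and 0 in the intermediate-like ones. Within the NG2-DsRed library its log2 ratio, mural-like to EC-like, was 1.37 (−1.76 to 4.95), an interval that includes 0. Against EC-like barcodes of the Tie2-GFP library it was 3.37 (0.47 to 6.27), on 3 UMIs in each class. Class and library cannot be told apart there, and the UMIs of Agtr1a were under the limit set below for calling a gene. Agt, which encodes the angiotensin precursor, had 0 UMIs in all EC-like and mural-like barcodes and was at 146 and 363 CPM in the intermediate-like ones, where 91.3% of the 23 barcodes of the NG2-DsRed library held a UMI. Ace, the converting enzyme, had 6 and 3 UMIs in the EC-like classes and 0 in the mural-like class.

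Ramp2 (ENSMUSG00000001240, chr11:101246028-101259546, overlapped on its own strand by Vps25) helped to choose the EC-like barcodes, so its levels are given as a description. It had 1759 UMIs, or 512 CPM, and a UMI in 91.3% of the EC-like barcodes of the Tie2-GFP library, 641 CPM in those of the NG2-DsRed library, 1 UMI in the mural-like barcodes and 7.61 CPM in intermediate-like barcodes of the Tie2-GFP library. Its receptor Calcrl, outside the rule, was at 125 CPM and in 53.8% of EC-like barcodes of the Tie2-GFP library, at 73.6 CPM in those of the NG2-DsRed library and at 30.1 CPM in mural-like barcodes. The ligand gene Adm was higher in intermediate-like barcodes, at 408 and 845 CPM, than in EC-like barcodes of the Tie2-GFP library, at 38.7 CPM.

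The 3 comparisons of classes were read with a fixed rule: a gene was called when it differed at least 4-fold in CPM and had at least 20 UMIs in both classes together. Against 0 UMIs the ratio is a bound set by 3 UMIs in that class. Within the NG2-DsRed library, mural-like barcodes were set against all EC-like barcodes, since both come from 1 library. Of the 9 genes other than Ramp2, 8 had enough UMIs. Ednra (log2 ratio 2.74, 2.26 to 3.25), Gucy1a1 (2.49, 2.13 to 2.86), Gucy1b1 (2.24, 1.93 to 2.56), Prkg1 (2.51, 1.58 to 3.53) and Adcyap1r1 (3.07, 2.07 to 4.22) were called higher in mural-like barcodes, that is 5 genes, where 5.13% of the 6533 genes compared were. Edn1, at least 30.1-fold lower, and Nos3 (log2 ratio −4.26, −9.61 to −1.69) were called higher in EC-like barcodes, that is 2 genes, where 6.43% of genes were. Pde5a was 3.13-fold higher in mural-like barcodes (log2 ratio 1.64, 1.22 to 2.08) and stayed under the 4-fold limit. The median log2 ratio was 2.37 over the 8 genes and 0.09 over all genes compared. The named genes were chosen with earlier results of these data known. In each comparison the values for all genes are therefore given as a description, and no excess is read from them.

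All 6 mural markers outside the rule were present in these EC-like barcodes, at 1072 CPM summed against 4375 CPM in mural-like barcodes, and their part in the ratios was not tested. Against the 16 EC-like barcodes with at most 1 mural gene, Ednra was at least 20.1-fold and Gucy1a1 at least 31.6-fold higher in mural-like barcodes, the log2 ratio of Gucy1b1 was 6.77 (4.28 to 12.08), on 1 UMI, and that of Pde5a 5.50 (2.99 to 10.81), also on 1 UMI. The bound for Prkg1 was 4.94-fold and for Adcyap1r1 5.63-fold. Edn1 was at least 42.5-fold lower in mural-like barcodes, and the log2 ratio of Nos3 was −4.71. The 8 genes had the same directions as against all EC-like barcodes, with Nos3 on 1 and 9 UMIs, under the limit of 20. In both comparisons the mural-like barcodes were chosen for holding at most 1 endothelial gene. The 16 barcodes were chosen for holding few mural genes, so this comparison is no independent check of the first. The share of all genes past 4-fold in it is not given here.

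**Figure D3:**
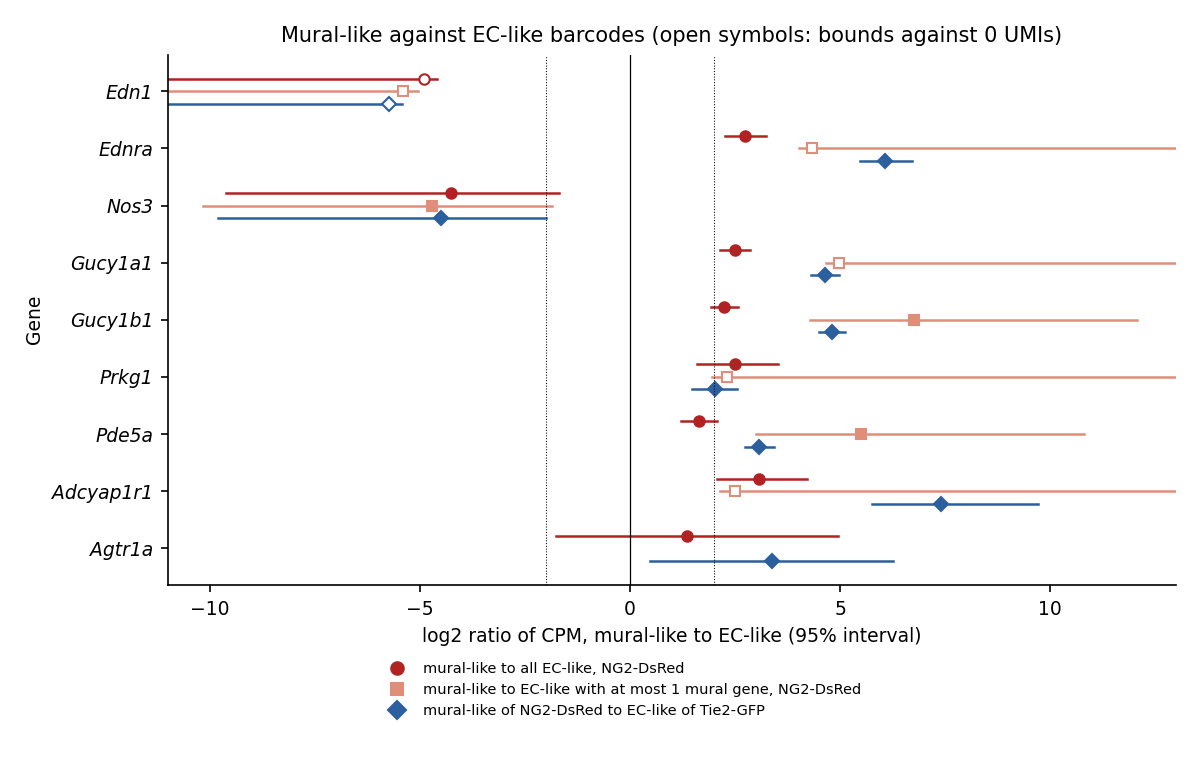
Log2 ratio of CPM, mural-like to EC-like barcodes, with exact 95% intervals, for the 9 genes outside the class rules. Circles compare the classes within the NG2-DsRed library, squares do so with EC-like barcodes of at most 1 mural gene, diamonds take the EC-like barcodes from the Tie2-GFP library, open symbols are bounds against 0 UMIs, and dotted lines mark 4-fold. Edn1 and Nos3 lie left of 0 in each comparison and Ednra, Adcyap1r1 and the cGMP genes right of it, while the interval of Agtr1a includes 0 within the NG2-DsRed library.

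Between the lines, mural-like barcodes of the NG2-DsRed library were compared with EC-like barcodes of the Tie2-GFP library, the contrast of the cells each reporter was meant to mark. Class, library and software version cannot be told apart in it. Called higher in mural-like barcodes were 6 of 8 genes, where 8.72% of 9799 genes were, with log2 ratios of 6.07 (5.48 to 6.71) for Ednra, 4.64 (4.32 to 4.97) for Gucy1a1, 4.81 (4.50 to 5.13) for Gucy1b1, 3.08 (2.74 to 3.42) for Pde5a, 2.03 (1.48 to 2.55) for Prkg1 and 7.40 (5.77 to 9.73), on 3 UMIs in EC-like barcodes, for Adcyap1r1. Called lower were 2, where 7.97% of genes were: Edn1, by at least 53.2-fold, and Nos3 (log2 ratio −4.50, −9.81 to −2.01). With at most 1 mural gene in the EC-like barcodes, Ednra was at least 507-fold and Adcyap1r1 at least 142-fold higher, and the log2 ratios were 10.22 for Gucy1a1, 10.43 for Gucy1b1 (2 UMIs each in EC-like barcodes), 4.05 for Pde5a and 2.46 for Prkg1.

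Within the Tie2-GFP library, EC-like barcodes were set against intermediate-like barcodes, a non-vascular class of the same tissue. Edn1 was at least 210.2-fold higher in EC-like barcodes and Nos3 22.4-fold higher (log2 ratio 4.48, 3.11 to 6.37). Of 7 genes with enough UMIs, 5 were called higher in EC-like barcodes, where 15.1% of 10516 genes were, and 0 were called higher in intermediate-like barcodes, where 8.46% of genes were. The other 3 called were Gucy1a1 (log2 bound 3.86), Gucy1b1 (4.48) and Pde5a (2.94), and with at most 1 mural gene in the EC-like barcodes these 3 were no longer called: Gucy1a1 had 2 UMIs against 0, Gucy1b1 2 against 2 (log2 ratio −1.14), and Pde5a a log2 ratio of 1.97. In this second form Edn1 was at least 231-fold and Nos3 23.4-fold higher in EC-like barcodes. Pde5a was 3.92-fold higher (1.88 to 9.44), just under the 4-fold limit. The share of all genes called in the second form is not given here.

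The share of EC-like barcodes that held each gene was then followed by the number of mural genes of the rule they held. For Ednra the shares in the Tie2-GFP library were 0%, 0%, 0%, 28.6% and 63.2% with 0, 1, 2, 3 and 4 mural genes, and in the NG2-DsRed library 0%, 0%, 30.0%, 30.0% and 68.2%. Gucy1b1 went from 0% to 94.7% in the Tie2-GFP library and from 0% to 86.4% in the NG2-DsRed library. Edn1 was found in 44.1%, 48.8%, 66.7%, 42.9% and 78.9% in the Tie2-GFP library. All 3 genes were thus most frequent there in the 19 barcodes with 4 mural genes, while Edn1 alone of them was also frequent with 0. In CPM, Edn1 was lower in the 26 EC-like barcodes with at least 3 mural genes than in the 347 with at most 1, by 1.13 on the log2 scale (0.85 to 1.41), and so was Nos3, by 0.73 (0.07 to 1.48). Median depth moved with the number of mural genes, from 7127 UMIs with 0 to 17698 with 4 in the Tie2-GFP library and from 2923 to 12448 in the NG2-DsRed library. Barcodes that hold 2 cells and cells that use both sets of genes cannot be told apart from these counts.

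**Figure D4:**
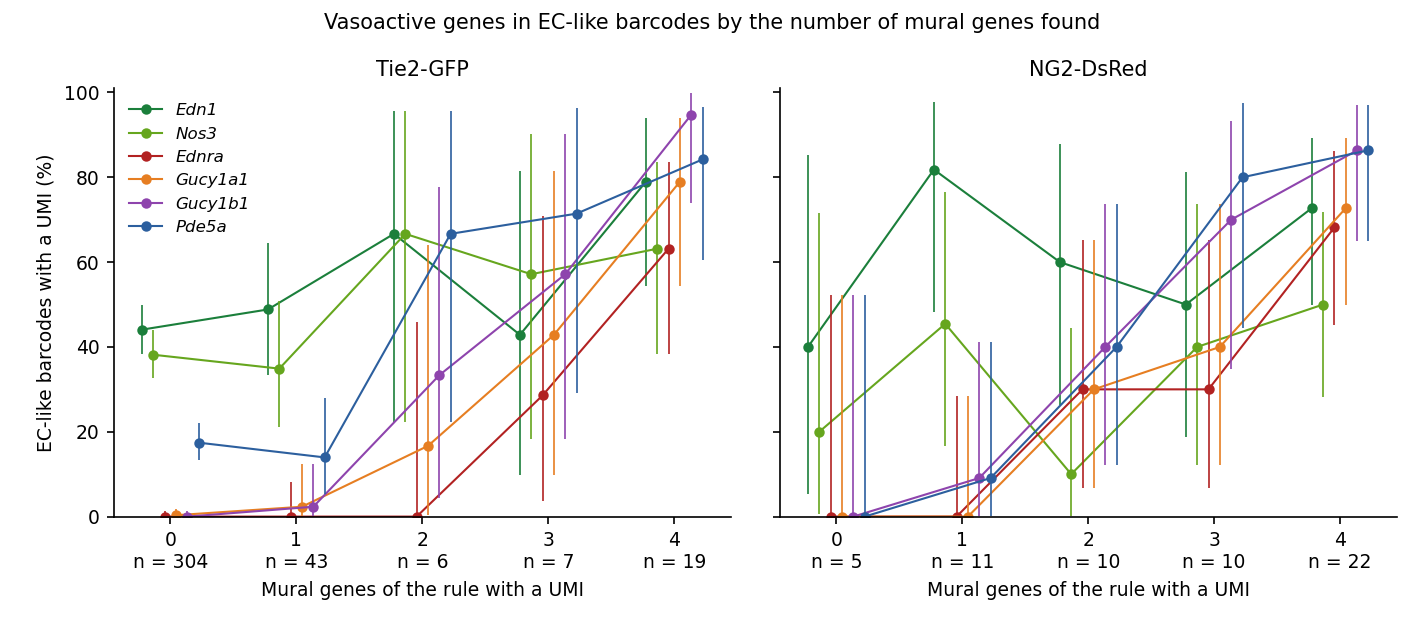
Percent of EC-like barcodes with a UMI of each gene (vertical axis, exact 95% intervals) by the number of the 4 mural genes of the rule that had a UMI in the barcode, in the Tie2-GFP (left) and NG2-DsRed (right) libraries, with the number of barcodes under the axis. Ednra and the cyclase genes lie at 0% to 9.09% with 0 or 1 mural gene and at 63.2% to 94.7% with 4, while Edn1 is present throughout.

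The number of barcodes that held several of the genes was also counted, and no link between genes is read from it. Of the 97 mural-like barcodes, 72 held Gucy1a1 and 86 Gucy1b1, 65 (67.0%, 56.7 to 76.2) held UMIs of both cyclase subunits, 53 (54.6%) held both with Prkg1 or Pde5a, and 64 held Ednra with Gucy1b1. The receptors for endothelin and angiotensin, Ednra and Agtr1a, were found together in 2 (2.06%). In the Tie2-GFP library 177 of 379 EC-like barcodes held Edn1, 151 held Nos3 and 78 (20.6%, 16.6 to 25) held both. The barcodes with both had a median of 10770.5 UMIs and the others 7131. Edn1 with its receptor Ednra was found in 0 of 347 EC-like barcodes with at most 1 mural gene and in 10 of 26 with at least 3, and in the NG2-DsRed library in 0 of 16 and 12 of 32.

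The genes were also compared within the mural-like and EC-like classes. Mural-like barcodes were divided by the contractile genes Acta2, Tagln and Myh11, 40 with at least 2 of them (median 3749 UMIs) and 57 with fewer (2528 UMIs), a range and not a cell type. Ednra was at 437 CPM in the first and 628 CPM in the second, a log2 ratio of −0.52 (−0.97 to −0.08). Gucy1b1 was at 732 and 1205 CPM (−0.72, −1.05 to −0.39), Gucy1a1 at 720 and 949 CPM (−0.40, −0.75 to −0.05) and Adcyap1r1 at 90.7 and 211 CPM (−1.22, −2.18 to −0.32). These 4 genes were thus somewhat lower in barcodes with contractile genes, and none of them reached 4-fold. Prkg1 (0.58, −0.37 to 1.57) and Pde5a (0.38, −0.14 to 0.91) had intervals that included 0. With a limit of 1 contractile gene, chosen after seeing the data, the ratio of Ednra was −0.21 (−0.68 to 0.27) and that of Adcyap1r1 −0.81 (−1.68 to 0.08). The differences of Ednra and Adcyap1r1 thus depended on the limit. At that limit Gucy1b1 was at −0.43 (−0.77 to −0.09) and Gucy1a1 at −0.39 (−0.76 to −0.02).

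EC-like barcodes of the Tie2-GFP library were divided by arterial genes (such as Gja4, Gja5 and Bmx; 115 barcodes, median 8711 UMIs) and venous genes (Nr2f2, Slc38a5, Vcam1; 29 barcodes, 11188 UMIs). Edn1 was at 589 CPM with arterial and 307 CPM with venous genes, a log2 ratio of 0.94 (0.66 to 1.23), and Nos3 at 92.2 and 52.1 CPM, a log2 ratio of 0.83 (0.13 to 1.59). With at most 1 mural gene, 99 and 25 barcodes remained, and the ratios were 0.84 (0.55 to 1.14) for Edn1 and 1.60 (0.71 to 2.65) for Nos3. Both were thus higher with arterial genes beyond counting error, at under 4-fold. In the venous group 1 barcode held 52 of the 118 Edn1 UMIs. When it was left out, a step added after seeing the data, the venous level of Edn1 was 177 CPM and the ratio 1.74 (1.37 to 2.13), or 1.67 (1.29 to 2.07) with at most 1 mural gene. Leaving out instead the arterial-gene barcode with the most Edn1 UMIs gave a ratio of 0.82 (0.53 to 1.11) in all barcodes. The size of the Edn1 difference thus depended on 1 venous-gene barcode, and its intervals do not cover the unevenness between barcodes. Pde5a did not differ beyond its interval (0.01 in all, −0.22 with at most 1 mural gene), nor did Prkg1 (−0.35 and −1.19). The ratio of Gucy1b1 was 1.46 (0.40 to 2.72) in all, but with at most 1 mural gene it rested on 2 UMIs against 0.

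**Figure D5:**
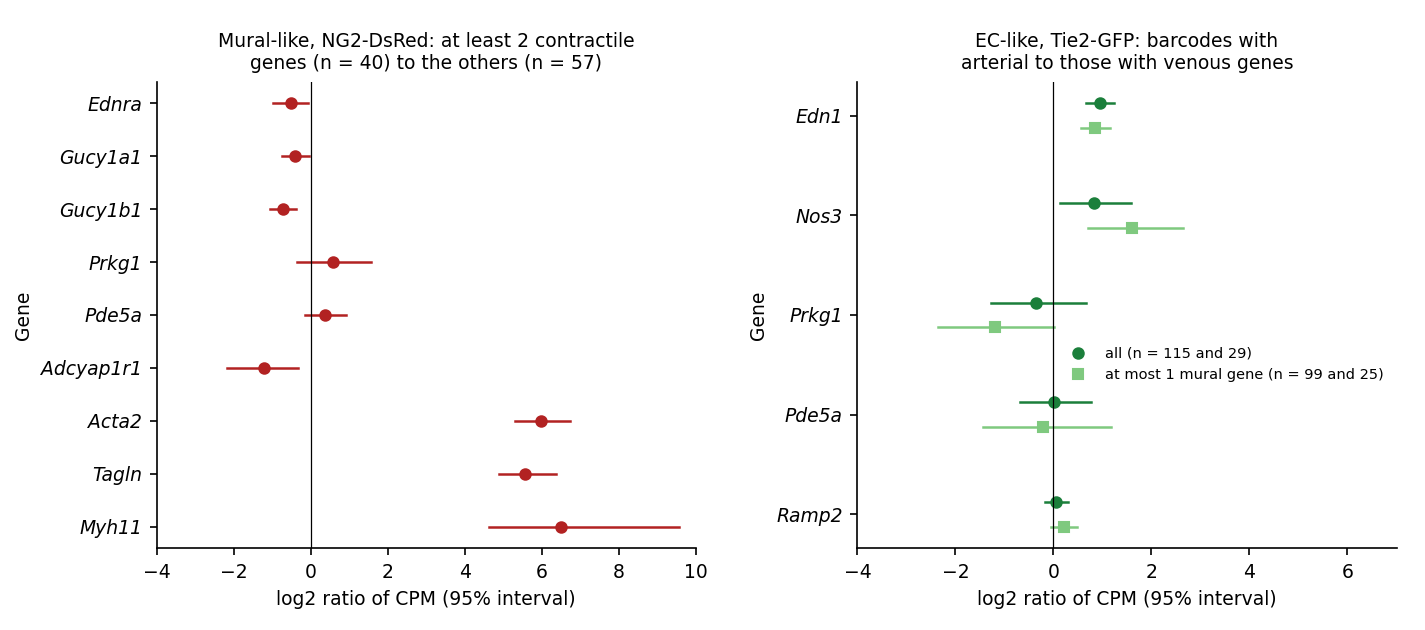
Log2 ratio of CPM with exact 95% intervals within the mural-like class of the NG2-DsRed library (left, barcodes with at least 2 contractile genes to the others) and within the EC-like class of the Tie2-GFP library (right, barcodes with arterial genes to those with venous genes, all or with at most 1 mural gene). Acta2, Tagln and Myh11 define the left division, in which Ednra, the cyclase genes and Adcyap1r1 lie below 0, and Edn1 and Nos3 lie above 0 on the right.

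A wider list of 93 genes of vasoactive signalling was read with the same rule. The list and the class rules were chosen with earlier results of these data known. Genes entered with enough UMIs in both classes together, which either class alone can supply. The shares called here and in the next paragraph are therefore a description, and no excess over all genes is read from them. In the NG2-DsRed library 27 had enough UMIs, of which 9 were called higher in mural-like barcodes (33.3%, against 5.13% of all genes) and 7 in EC-like barcodes (25.9%, against 6.43%), with a median log2 ratio of 0.71 against 0.09 over all genes. Higher in mural-like barcodes were Pde3a, a phosphodiesterase inhibited by cGMP (log2 ratio 2.31), the calcium-activated phosphodiesterase Pde1a (2.13), the nucleotide sugar receptor P2ry14 (2.68), the sphingosine 1-phosphate receptor S1pr3 (2.84), the serotonin receptor Htr1b (2.34) and the adenosine receptor Adora2a (2.82). Higher in EC-like barcodes were S1pr1, with 1 UMI in mural-like against 294 in EC-like barcodes (−7.42), Nostrin (−4.41), the natriuretic peptide receptor Npr1 (−4.08), Gch1 and the prostacyclin synthase Ptgis, both at 0 UMIs in mural-like barcodes (bounds of −3.36 and −3.42). Of the sphingosine 1-phosphate receptors in the list, S1pr1 was thus higher in EC-like and S1pr3 in mural-like barcodes. The other receptors of this ligand were not in the list. The partners Ednrb (1.47), Ece1 (−0.76), Calcrl (−1.29) and Gucy1a2 (1.84) stayed under 4-fold.

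Between the lines 42 of the 93 genes had enough UMIs, of which 12 were called higher in mural-like (28.6%, against 8.72% of all genes) and 11 in EC-like barcodes (26.2%, against 7.97%), with a median log2 ratio of −0.15 against 0.25 over all genes. Pde3a (4.15), S1pr3 (4.28), P2ry14 (5.85) and Gucy1a2 (4.43) were higher in mural-like barcodes, and S1pr1 (−7.01), Nostrin (−5.01), Npr1 (−4.11), Adm (−2.69) and Calcrl (−2.06) in EC-like ones, as were Gch1, Ptgis and the clearance receptor Npr3, which had 0 UMIs in mural-like barcodes. Against intermediate-like barcodes, 39 genes of the list had enough UMIs in the Tie2-GFP library, of which 22 were called higher in EC-like (56.4%, against 15.1% of all genes) and 5 in intermediate-like barcodes (12.8%, against 8.46%). The EC-like side held Ece1 (6.12), Calcrl (7.36), Nostrin (6.0), Npr1 (6.10) and the cGMP-stimulated phosphodiesterase Pde2a (8.10), with S1pr1, Gch1, Ptgis and Npr3 against 0 UMIs. On the intermediate-like side were Ednrb (−2.60), Adm (−3.40) and Agt, with 0 UMIs in EC-like against 192 in intermediate-like barcodes.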

How the data were processed

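The values deposited are raw counts of UMIs for every gene in every barcode of the 2 libraries, 1 of Tie2-GFP and 1 of NG2-DsRed mice. The matrix headers carry Cell Ranger version 7.0.0 for the Tie2-GFP and 3.0.0 for the NG2-DsRed library, and the submitters' processing notes name bcl2fastq 2.20.0.422 and the build mm10. Whether intronic reads were counted is not given in the sources used here. Gene positions are those of GENCODE M21 (GRCm38), joined by Ensembl identifier.

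Here all barcodes that met a class rule were used, and 2 barcodes of the NG2-DsRed library that met 2 rules were set aside. Doublets were not removed with a caller. EC-like barcodes with mural genes were shown apart instead. UMIs were summed per class and given as CPM with exact Poisson intervals, shares with Clopper-Pearson intervals, and ratios with exact conditional binomial intervals, with scipy 1.17.1 and numpy 2.4.6 (Python 3.11.15, pandas 2.3.3, matplotlib 3.10.9). Classes of barcodes of 1 library are not replicates, so no test was run. The precision is set by the summed UMIs of each class. Equal-depth shares are expected values at 2527 UMIs, the 10th percentile, over the barcodes at least that deep. The ratio intervals were tried on simulated Poisson counts, and the equal-depth formula on random draws. The class rules and the spread between barcodes were not simulated.

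The 10 genes, the class rules and the wider list were chosen with earlier results of these data known. Of the wider list, the genes called in a comparison were named, up to the 12 with the most UMIs, besides the direct partners of the 10 genes. Pde2a is listed under different identifiers in the 2 tables and was used in the Tie2-GFP library alone. Irag1 was matched as Mrvi1. Some genes that met the naming rule are not reported here. The alternatives were other limits on UMIs and fold, the study's limits on genes, UMIs, mitochondrial and ribosomal percent, EC-like barcodes with at most 1 mural gene, stricter mural-like and intermediate-like rules, the EC-like rule without Ramp2, barcodes of 2 rules kept, CPM without mitochondrial genes or over the genes of both tables, equal weights of barcodes, equal depth, and, chosen after seeing the data, the divisions of a class under another limit or without 1 barcode.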

Additional observations from a re-analysis of the deposited data

Results flagged for a closer look

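Barcodes that met no class rule entered no comparison. In the 163 such barcodes of the Tie2-GFP library, Edn1 had 7 UMIs, Prkg1 5 and Ramp2 17, more than the 3 UMIs taken as the floor. The medians of these barcodes were 1533 UMIs and a mitochondrial share of 75.6%. In the 21 of the NG2-DsRed library, Ednra had 6 UMIs, Gucy1a1 13, Gucy1b1 16 and Pde5a 11. Those 21 had a median of 1220 UMIs, mural markers outside the rule at 1059 CPM summed and 8831 erythroid UMIs. The counts are therefore not read as levels of a further cell type.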

How the results depend on the processing

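Of the 275 log2 ratios recomputed under an alternative, 252 kept their direction and stayed within their interval, 22 moved beyond it and 1 reversed. Of the levels in CPM 343 of 370 stayed within their interval, and of the shares of barcodes with a UMI 18 of 40 at equal depth. The reversed ratio was that of Gucy1b1 in EC-like against intermediate-like barcodes of the Tie2-GFP library, from 4.48 to −1.14 with at most 1 mural gene, on 2 UMIs in each class. In that comparison 5 of the named genes were called, 2 with at most 1 mural gene and 2 under the study's quality limits, which leave 6 intermediate-like barcodes. Over all genes it called 2475 of 10516, and 5081 of them at 2-fold, but 1435 under the quality limits. Within the NG2-DsRed library 755 of 6533 genes were called, 1989 of them at 2-fold, and 384 genes with at least 50 UMIs. Between the lines 1635 of 9799 were called, and 4173 of them at 2-fold. Within the NG2-DsRed library 7 of the named genes were called, 6 with at least 50 UMIs and 8 at 2-fold, and between the lines 8 under each alternative run. At 2-fold far more of all genes were called too. For the other alternatives the number of genes compared is not given here. These counts are therefore not read as a result about the named genes. No paired analysis was possible because each line has 1 library and no result comes from a test. Classes of 1 library share its preparation, so differences between mice, days or sorts cannot be seen. They do not share a depth per barcode: the NG2-DsRed medians were 3027 UMIs in mural-like and 9146 in EC-like barcodes. Genes with few UMIs, such as Agtr1a, were limited by depth.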
